A study of Mus musculus with 56 samples.

Results

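The genes described here are 8 contractile genes, grouped under smooth muscle and chosen by name from the deposited tables. The actins are Acta1 (the alpha actin of skeletal muscle), Acta2 and Actg2. The others are the actin-binding protein genes Tagln (transgelin, also called SM22 alpha), Cnn1 (calponin), Tpm1 and Tpm2 (tropomyosins), and Mylk (myosin light chain kinase). The 8 genes are among the 13451 genes of a table of sorted cells, in which all 8 have a row. They were taken by symbol.

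Smooth muscle contracts when myosin light chain kinase phosphorylates the regulatory light chain of myosin, which then pulls on filaments of actin covered by tropomyosin, with calponin and transgelin bound alongside. Serum response factor (SRF), bound to DNA elements called CArG boxes and helped by myocardin family coactivators that sense free actin, switches on many of these genes. Cultured fibroblasts also make alpha smooth muscle actin and transgelin in stress fibres, and cells that do so strongly are called myofibroblasts, so the genes mark a contractile fibroblast state as well as smooth muscle.

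RNA was measured in mouse embryonic fibroblasts (MEFs) of the OG2 strain, which carries an Oct4-GFP reporter that lights up late in reprogramming to induced pluripotent stem cells (iPSCs). In the sorted series, passage 2 fibroblasts received a doxycycline-inducible lentivirus with Oct4, Sox2, Klf4 and Myc on 1 transcript together with the rtTA transactivator, and either a control shRNA against luciferase or an shRNA against Ctcf, the gene of the insulator protein CTCF. Unsorted cells were collected on day 0. Sorting on days 3, 6 and 9 separated Thy1+ cells (which keep the fibroblast surface marker Thy1), SSEA1+ cells (which have gained an early pluripotency surface marker) and double-negative cells (DN, neither marker), and sorting on day 12 took Oct4-GFP+ cells. These are 11 populations under each shRNA, hence 22 groups with 2 libraries each, 44 in all. In a day 10 experiment the factors came from retroviruses, and cells received the control (oecontrol), a pMXs vector that overexpresses CTCF (oeCTCF), or that vector plus an shRNA to Smarca5, which encodes a chromatin remodeller. Infected cells of both systems grew in stem cell medium with vitamin C. A further MEF library and iPSC library were counted separately.

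Levels are given as the authors' normalized score, a whole number; the upper ranks hold the same values in every library of a table. Rows of the sorted-cell table add up to between 31777102 and 31798964 in each library, so the raw depth is not known. The labels do not say whether the 2 libraries of a group came from separate cultures, so the p-values below measure only the spread between libraries, which may be technical. Ctcf fell with its shRNA in all 11 populations, by 0.52 on the log2 scale at day 0 (from 790 and 830 to 520 and 616) and by 1.81 at day 12 (from 2381 and 2441 to 698 and 674). In these bulk samples, fewer cells of a contractile kind and less RNA per cell cannot be told apart. Where libraries are said not to overlap, this only describes the scores of 2 libraries per group. The share of all genes without overlap is not given.

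Sequence upstream of a start site was at hand for 6 of the 8 genes, from RefSeq on GRCm38.p6. Tagln and Actg2 had none and were not searched. A perfect CArG box, CC and GG with 6 letters that are each A or T between them, lay in the window of Acta1 and in none of the other 5, against 1.63% of 32851 promoters of the same table. With 1 other letter allowed in the A and T core, Acta1 and Acta2 held boxes, against 9.98% of promoters. The box reads as the same pattern on both strands, and the window ran from 250 bases before to 50 bases after the start. The Acta1 sequence is shown because it holds the perfect box. Capitals mark, from left to right, a box with 1 other letter at -205, another at -154, and the perfect box at -73 from the RefSeq start. It is the 250 bases before that start, chr8:123894776-123895025, minus strand.
Acta1 promoter: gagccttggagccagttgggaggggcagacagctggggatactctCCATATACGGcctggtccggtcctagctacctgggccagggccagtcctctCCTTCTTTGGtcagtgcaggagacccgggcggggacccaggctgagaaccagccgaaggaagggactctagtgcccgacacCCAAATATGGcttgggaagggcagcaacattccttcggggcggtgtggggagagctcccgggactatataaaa
Acta2 held 2 boxes with 1 other letter each, at -84 and -34. They are shown as 30 bases because GENCODE places an Acta2 exon over this stretch. They lie at chr19:34255438-34255467 and chr19:34255388-34255417, minus strand.
Acta2 box at -84: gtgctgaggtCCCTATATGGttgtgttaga
Acta2 box at -34: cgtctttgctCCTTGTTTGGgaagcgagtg
The MCAT element, CATTCC or GGAATG on either strand and a site known for TEAD factors, was searched for after the CArG result was seen. It lay in 4 of the 6 windows, those of Acta1 (-46), Acta2 (-146), Mylk (-158) and Tpm1 (-56), overlapped no CArG box, and was in 14.7% of all promoters. A match in letters is a description of the sequence and not evidence of a factor bound there.

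On GRCm38, Acta1 lies on chromosome 8 at 123891769-123894751, Acta2 on chromosome 19 at 34241090-34255590, Actg2 on chromosome 6 at 83512905-83536265 and Tpm2 on chromosome 4 at 43514711-43523765. Tagln (45929619-45936058), Cnn1 (22099216-22109630) and Tpm1 (67022590-67049406) all lie on chromosome 9, far from each other, and Mylk lies on chromosome 16 at 34745210-35002420. Actins are alike in sequence, so shared reads were looked for. Of all 50-base windows of a transcript, 2.22% of those of Acta1 and 0.352% of those of Acta2 occur in a transcript of another gene, and none of those of the other 6 genes do.

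In day 0 fibroblasts with control shRNA the contractile genes other than Mylk were abundant, led by Acta2, the alpha actin of vascular smooth muscle. Their mean scores lay above 493, the median over all genes and libraries of the sorted series. Mylk had a mean score of 121. Divided by the length of the merged exons, the day 0 level was 28489 score per kilobase for Acta2, 14825 for Tagln, 4281 for Tpm1, 2014 for Acta1, 1801 for Tpm2, 1006 for Actg2, 449 for Cnn1 and 10.7 for Mylk. Whether the authors had already corrected scores for length is not stated, so this order between genes holds only if they had not. On the undivided scale Myh11, the smooth muscle myosin heavy chain, had a mean score of 483.5 and Lmod1 (leiomodin) 976.5 at day 0, against 62561.5 for Acta2. Myocd, which encodes the coactivator myocardin, is not analysed here. Skeletal and cardiac muscle lists had 2 tested members each, of 10 and 8. Of these, the acetylcholine receptor gene Chrna1 had a mean score of 268 and the cardiac troponin gene Tnnt2 131 at day 0. The other skeletal gene, Ttn, had 33 and the other cardiac gene, Gata4, had 66. In day 12 GFP+ cells with control shRNA, Chrna1 stood at 3.5, Tnnt2 at 2, Ttn at 478 and Gata4 at 54.

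Across the 11 populations with control shRNA, 6 genes were highest at day 0. Actg2, the gamma actin of gut smooth muscle, was highest in day 3 Thy1+ cells (2153 and 2072), and Mylk in day 9 Thy1+ cells (582 and 613). The lowest population was day 6 SSEA1+ cells for 7 genes and day 12 GFP+ cells for Actg2 (191 and 228). Highest over lowest mean came to 124 for Acta1, 115 for Acta2, 95.7 for Tagln, 85.4 for Mylk, 68.2 for Cnn1, 39.7 for Tpm2, 10.1 for Actg2 and 9.31 for Tpm1. Tpm1 and Actg2 thus spanned the least. In the order of the 11 means, no pair of neighbours had overlapping libraries for Acta2 and Tagln, 1 pair did for Acta1, Tpm1 and Tpm2, 2 pairs for Mylk, 3 for Cnn1 and 4 for Actg2.

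**Figure D1:**
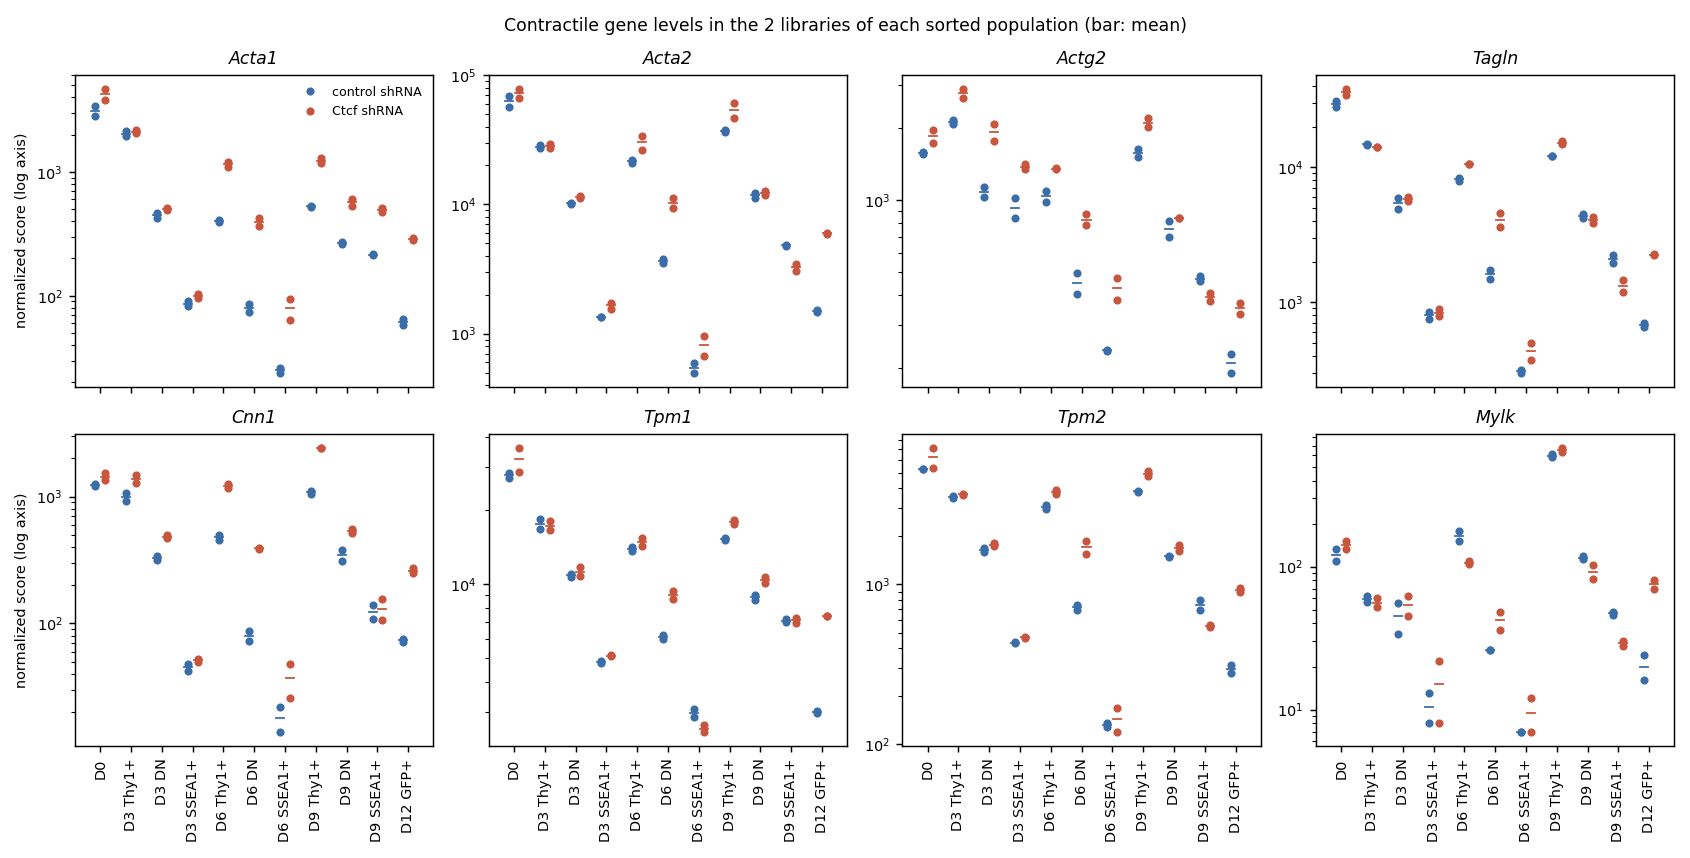
Score of each contractile gene (log axis) in the 2 libraries of each population, control shRNA in blue and Ctcf shRNA in red, with bars at the means. SSEA1+ cells of day 6 with control shRNA are lowest in 7 of 8 panels, and at day 12 both Ctcf shRNA libraries lie above both control libraries in every panel.

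At the end of reprogramming all 8 genes were lower than in the starting fibroblasts. Acta2 went from 68432 and 56691 at day 0 to 1520 and 1458 in day 12 GFP+ cells. Tagln went from 30822 and 28124 to 698 and 654. Acta1, the skeletal alpha actin, went from 3380 and 2806 to 58 and 65. No library of one day overlapped the other for these or any other member, which is given without the share over all genes. The log2 fold change was -5.63 for Acta1 (SE 0.13), -5.44 for Tagln, -5.39 for Acta2, -4.15 for Tpm2, -4.04 for Cnn1, -3.20 for Tpm1, -2.90 for Actg2 and -2.56 for Mylk (SE 0.30). All 8 were called (limma, adjusted p at most 1.77e-08), while 40.2% of all genes tested were called lower and the median over all genes was -0.01. The median over the 8 was -4.10. Fibroblast markers fell with them, 8 of 8 with a median of -2.24, and their summed score went from between 136412 and 156231 to between 38056 and 41192, with no marker at 0. The part of this in the contractile fall was not tested.

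Across the SSEA1+ cells of successive days the fall was early, deep and not steady. By day 3 all 8 genes were already lower than at day 0, where 32.5% of genes were called lower (limma). Acta2 stood at 1346 and 1348 and Tagln at 854 and 750 in day 3 SSEA1+ cells, a change of -5.53 for Acta2 and -5.20 for Tagln. Actg2, at 1015 and 843, had changed by -0.76. Fibroblast markers were lower in 8 of 8 (median -3.82), with a summed score between 7536 and 8150 against 136412 and 156231 at day 0, and their part in the fall was not tested. From day 3 to day 6, 7 genes fell further, where 25.0% of genes were called lower. Actg2 now fell most, by 1.96, and Acta1 fell by 1.75 to scores of 24 and 26. Mylk, at 8 and 13 on day 3 and 7 and 7 on day 6, did not pass (-0.49, adjusted p = 0.191).

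From day 6 to day 9 the SSEA1+ cells then showed more of every contractile gene. Acta2 rose from 500 and 588 to 4800 and 4858, Tagln from 302 and 314 to 2223 and 1940, and Acta1 from 24 and 26 to 216 and 213. None of these libraries overlapped between the days. All 8 were called higher (limma), against 22.5% of genes. The rise was largest for Acta2 (3.15, SE 0.14, adjusted p = 1.61e-16) and Acta1 (3.05) and smallest for Actg2 (0.99) and Tpm1 (1.25). The same day 6 libraries enter the fall before and the rise after, so both steps rest on them. Fibroblast markers rose too, 8 of 8 with a median of 3.63, and their summed score went from between 5465 and 5512 to between 57296 and 57414, whose part in the rise was not tested. From day 9 SSEA1+ cells to day 12 GFP+ cells all 8 fell again, by 0.73 (Cnn1) to 1.79 (Acta1), where 33.6% of genes were called lower. The Cnn1 call of that step ended without replicate 2 of the day 9 cells (adjusted p = 0.0613).

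**Figure D2:**
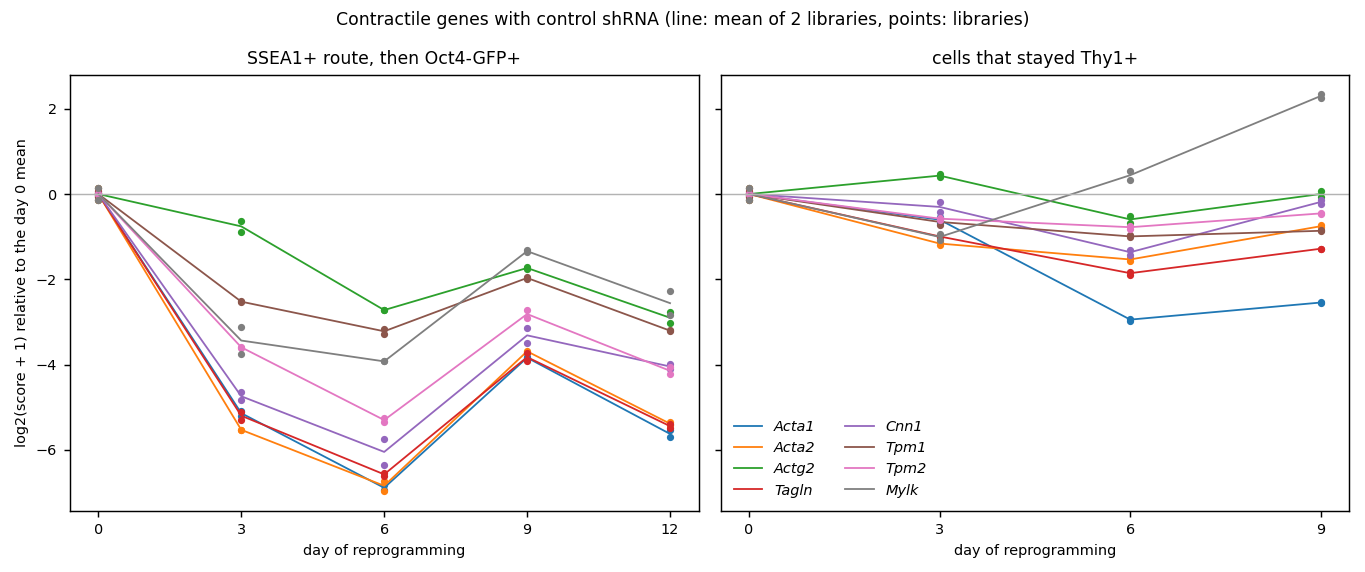
Change of log2(score + 1) from the day 0 mean with control shRNA, against day, in SSEA1+ cells followed by GFP+ cells (left) and in Thy1+ cells (right); lines join means of 2 libraries and points are libraries. On the left all 8 genes are higher at day 9 than at day 6 and lower again at day 12; on the right Mylk (grey) ends above its start.

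Across the cells sorted as Thy1+ on successive days the members did not move together. Day 0 cells were unsorted, and the same cells were not followed from day to day. At day 3, 6 genes were lower than at day 0 (limma; 20.1% of genes were lower), from -0.58 for Tpm2 to -1.16 for Acta2. Actg2 was higher, from 1586 and 1546 to 2153 and 2072 (0.43, adjusted p = 0.00326; 22.3% of genes were higher), and Cnn1 did not pass (-0.30, adjusted p = 0.239). Mylk was the least firm of the 6, since its call ended without replicate 2 of day 0 (adjusted p = 0.075) or of day 3 (0.0556). From day 3 to day 6 Acta1 fell most, from 2127 and 1933 to 406 and 392 (-2.34, adjusted p = 1.67e-13). With it 6 genes were lower, where 25.2% of genes were, and Tpm2 did not pass (-0.20, adjusted p = 0.169), while Mylk rose from 62 and 57 to 177 and 152 (1.45, adjusted p = 0.000343; 20.8% higher). The Acta2 call of that step (-0.37) ended without any 1 of the 4 libraries, with adjusted p from 0.0578 to 0.14.

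Between day 6 and day 9 of the Thy1+ cells 7 genes rose, where 10.8% of genes did (limma), and Tpm1 did not pass (0.13, adjusted p = 0.233). Mylk rose most, to 582 and 613 (1.86, SE 0.30), followed by Cnn1 from 458 and 495 to 1047 and 1113 (1.18). Acta2 reached 36189 and 37647, up by 0.78. The calls of Acta1 (0.40) and Tpm2 (0.32) each ended without any 1 of the 4 libraries, with adjusted p from 0.0782 to 0.117 and from 0.102 to 0.197. In the same step 5 of 8 fibroblast markers rose, and their summed score went from between 279210 and 294791 to between 400711 and 442832. Their part in the rise was not tested.

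Within each day the means of all 8 contractile genes stood in the order Thy1+, DN, SSEA1+. SSEA1+ cells had less of all 8 genes than Thy1+ cells on each sorting day (limma), where 28.8% (day 3), 33.8% (day 6) and 30.0% (day 9) of genes were called lower. At day 6 Acta2 was at 22044 and 20957 in Thy1+ cells, 3756 and 3492 in DN cells and 500 and 588 in SSEA1+ cells. Mylk was at 177 and 152, 26 and 26, and 7 and 7 in the same order, and no libraries overlapped for either gene. The SSEA1+ minus Thy1+ difference at day 6 ran from -2.13 for Actg2 to -5.31 for Acta2. Over the 8 genes its median on those days was -3.61, -4.44 and -2.45, beside medians over all genes of 0.09, 0.15 and 0.13. Thy1 is itself one of the fibroblast markers, all 8 of which were lower in day 6 SSEA1+ cells (median -6.04).

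Double-negative cells differed from both neighbours in most genes. Against Thy1+ cells, 7 genes were lower at day 3 (14.4% of genes), with Mylk at -0.44 not passing (adjusted p = 0.312), and 8 were lower at day 6 (29.3%) and at day 9 (24.4%). Against SSEA1+ cells, 7 were higher at day 3 (20.9% of genes), all 8 at day 6 (21.6%), and on day 9 again 7 (15.5%). Exceptions were Actg2 at day 3 (0.22, adjusted p = 0.123) and Acta1 at day 9 (0.32, adjusted p = 0.0719). Actg2 at day 3 did pass without replicate 1 of the SSEA1+ cells (0.35, adjusted p = 0.0435). Fibroblast markers differed in the same directions. Against Thy1+ cells 7 of 8 were lower at day 3 (median -1.01), and 8 of 8 at day 6 (-2.87) and at day 9 (-1.75). Against SSEA1+ cells 5, 7 and 8 of 8 were higher on the respective days (medians 2.79, 2.99 and 1.21). Their part in these differences was not tested. These comparisons share libraries with those of the paragraph before.

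Most other genes of the contractile machinery were lower at day 12 as well. Of 13 other smooth muscle structural genes, 12 fell between day 0 and day 12 (limma, median -2.18), among them Lmod1 (-6.20) and Myl9, the regulatory light chain that Mylk phosphorylates (-4.28). Csrp2, a LIM protein, rose by 1.94. A list of 12 non-muscle relatives of the members also held relatives of the myosin chains Myl9 and Myh11. Of the 12, 11 fell with a median of -1.04. Relatives of members that fell were Tpm4 (-2.97), Cnn2 (-2.69), Tagln2 (-2.10), Actg1 (-0.96), Tpm3 (-0.69), Actb (-0.55) and Cnn3 (-0.29). Myosin chains that fell were Myl12a (-1.63), Myh9 (-1.51), Myh10 (-1.12) and Myl12b (-0.42). Myh14, a non-muscle myosin heavy chain of epithelia, rose by 4.50, from a mean of 10 to 244. The non-muscle actin Actb thus kept mean scores of 49840 and 33899 at the ends of a course over which Acta2 went from 62561.5 to 1489. Of 13 transcription regulators, 7 fell and 2 rose (median -0.23). The coactivators Tgfb1i1 (-5.35) and Fhl2 (-5.33) fell, Klf4 (2.21) and Tead2 (1.31) rose, and Srf itself did not pass (0.07). Klf4 is one of the supplied factors, and reads of the transgene and of the endogenous gene cannot be told apart here.

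Cytoskeletal target genes, TGF-beta genes and cell type markers also differed between day 0 and day 12. Of 10 cytoskeletal targets of SRF and YAP all fell (limma, median -2.92), with Ankrd1 at -7.77 and Filip1l at -4.86. Of 14 TGF-beta ligands, receptors and targets 11 fell and 1 rose (median -1.94), with Tgfb3 at -4.08 and Smad4 at 0.24. Pericyte markers were mixed, 2 of 5 lower and 3 higher, with Cspg4 at -4.21 and Notch3 at 2.83. Macrophage markers were lower in 6 of 6, 3 of 4 endothelial markers were higher and 1 was lower, and all 8 epithelial and all 8 pluripotency markers were higher (medians 6.52 and 11.53).

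As a description over the 22 group means, the members resembled each other closely. Pearson's r between 2 members ran from 0.56 (Mylk and Actg2) to 0.99 (Acta2 and Tagln) over 28 pairs, with a median of 0.918. All genes were read in the same libraries with the same normalization, and no p is attached. Against the mean pattern of the 8, Acta2 had r = 0.993, Tpm2 0.991 and Tagln 0.990, while Mylk (0.855) and Actg2 (0.831) stood furthest from it. That mean includes the member itself, so these values cannot be set beside those of other genes. The 10 other genes most like that mean pattern were Jph2 (0.989), Zyx (0.985), Rras (0.984), Inpp5a (0.983), Tgfb1i1 (0.983), Myl9 (0.982), Actn1 (0.980), Rhoc (0.980), Tnfrsf23 (0.979) and Col7a1 (0.979). Genes with provisional names, such as those with Gm or Rik, were left out of this ranking. Over the 11 control groups alone, Jph2, Inpp5a, Tnfrsf23 and Zyx ranked 1, 2, 4 and 5. There Col7a1 ranked 13, Tgfb1i1 19, Myl9 28, Rhoc 29, Actn1 44 and Rras 73. Zyx and Actn1 encode stress fibre proteins.

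The next comparison asked how less Ctcf alters these levels in each population. With Ctcf shRNA 1 member was called in each population up to day 3, and between 3 and 8 in those from day 6 on. At day 0 only Acta1 was called higher (limma), from 3380 and 2806 to 3791 and 4690 (0.45, adjusted p = 0.0352; 2.93% of genes were higher). That call ended without replicate 2 of either shRNA (adjusted p = 0.485 without the Ctcf shRNA library and 0.303 without the control library), while Tpm1 (0.37, adjusted p = 0.00109) and Tpm2 (0.44, 0.0139) passed without replicate 1 of the Ctcf shRNA cells. At day 3 only Actg2 was called, in all 3 populations, and 1.46%, 2.34% and 3.56% of genes were called higher in Thy1+, DN and SSEA1+ cells. It went from 1128 and 1026 to 2062 and 1757 in DN cells (0.82, adjusted p = 3.27e-05) and from 1015 and 843 to 1342 and 1404 in SSEA1+ cells (0.57, adjusted p = 0.00192). In Thy1+ cells it went from 2153 and 2072 to 2902 and 2646 (0.39, adjusted p = 0.0495). No control library of these populations reached a Ctcf shRNA library. The Thy1+ call ended without any 1 of the 4 libraries (adjusted p 0.092 to 0.257), and the SSEA1+ call without replicate 2 of the control (adjusted p = 0.0677). Mylk in SSEA1+ cells passed without replicate 2 of the Ctcf shRNA cells (1.03, adjusted p = 0.0456).

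At day 6 the double-negative cells responded most. With Ctcf shRNA 7 of the 8 genes were higher (limma; 20.2% of genes were), and the median over the 8 was 1.29 beside -0.04 over all genes. Cnn1 went from 87 and 72 to 394 and 386 (2.29, SE 0.20) and Acta1 from 74 and 86 to 422 and 365 (2.28). Acta2 went from 3756 and 3492 to 9326 and 11105 (1.49, adjusted p = 3.02e-09). No libraries overlapped for the 7 genes or for Mylk, which is given without the share over all genes. Mylk, at 26 and 26 against 36 and 48, did not pass (0.66, adjusted p = 0.085). Fibroblast markers were also higher, 7 of 8 with a median of 1.00, with a summed score between 98901 and 99133 against 40949 and 42094 in the control. Pluripotency markers were called lower in 5 of 8, and the part of these shifts in the contractile rise was not tested.

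In the Thy1+ cells of day 6, 5 genes were higher with Ctcf shRNA (limma; 6.83% of genes were). Acta1 went from 406 and 392 to 1096 and 1208 (1.53, adjusted p = 4.6e-09) and Cnn1 from 458 and 495 to 1162 and 1262 (1.34). The other 3 calls were near the threshold: Acta2 (0.48), Actg2 (0.38) and Tagln (0.38). Between 2 and 3 members were called when any 1 of the 4 libraries was left out, with Acta1 and Cnn1 called each time. Tagln was lost without any of the 4 (adjusted p 0.0934 to 0.176). Acta2 was lost without replicate 2 of the Ctcf shRNA cells (0.29, adjusted p = 0.295) or without either control library (0.0683 and 0.117). Actg2 was lost without either Ctcf shRNA library or replicate 2 of the control (0.105 to 0.193). Here fibroblast markers went the other way, with 5 of 8 lower and none higher, and a summed score between 204648 and 219028 against 279210 and 294791.

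In the SSEA1+ cells of day 6, 5 genes were higher as well (limma; 11.2% of genes were). Acta1 went from 24 and 26 to 64 and 94 (1.60, adjusted p = 1.23e-09) and Actg2 from 238 and 235 to 472 and 384 (0.85). The calls of Acta2, Tagln and Cnn1 rested on replicate 2 of the Ctcf shRNA cells. Without that library Acta2 stood at 0.31 (adjusted p = 0.187), Tagln at 0.27 (0.191) and Cnn1 at 0.54 (0.0792), and 2 members were called. Acta2 also did not pass without replicate 1 of the control (0.45, adjusted p = 0.0779), and Tpm2 passed without replicate 1 of the Ctcf shRNA cells (0.36, adjusted p = 0.0306). Of the fibroblast markers 4 of 8 were higher and 1 lower, with a summed score between 6725 and 7619 against 5465 and 5512 in the control. Of the pluripotency markers 1 of 8 was called lower, with a sum between 1892 and 1927 against 2951 and 3159. The part of these shifts was not tested.

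By day 9 the response differed between the gates. In Thy1+ cells 6 genes were higher with Ctcf shRNA (limma; 7.51% of genes were): Acta1 (1.22), Cnn1 (1.16), Acta2 (0.53), Actg2 (0.42), Tpm2 (0.36) and Tpm1 (0.24). Cnn1 went from 1047 and 1113 to 2410 and 2415, the highest Cnn1 levels of the sorted series. Between 2 and 4 members were called when any 1 of the 4 libraries was left out, with Acta1 and Cnn1 called each time. Tpm1 was lost without any of the 4 (adjusted p 0.0552 to 0.177). Acta2 and Actg2 were lost without replicate 2 of the Ctcf shRNA cells (Acta2 0.34, adjusted p = 0.15; Actg2 0.0818) or replicate 1 of the control (0.06 and 0.107). Tpm2 was lost without replicate 1 of the Ctcf shRNA cells (adjusted p = 0.177) or without either control library (0.102 and 0.122). In the Thy1+ cells 3 of 8 fibroblast markers were lower and none higher. All 8 epithelial markers were called lower there, with a summed score between 1451 and 1476 against 4123 and 4528 in the control. So were 4 of 8 pluripotency markers, with a sum between 142 and 212 against 542 and 601. The part of these shifts in the contractile rise was not tested. In DN cells 3 genes were higher (14.6% of genes): Acta1 (1.08), Cnn1 (0.63) and Tpm1 (0.23). Without replicate 1 of either shRNA only Acta1 was called there, and Cnn1 was also lost without replicate 2 of the Ctcf shRNA cells (adjusted p = 0.109).

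In the SSEA1+ cells of day 9, Acta2, Tagln and Tpm2 were lower with Ctcf shRNA (limma; 9.04% of genes were lower) and Acta1 was higher (4.8% were). Acta2 went from 4800 and 4858 to 3058 and 3445 (-0.57, adjusted p = 0.00491). Tagln went from 2223 and 1940 to 1450 and 1190 (-0.66, adjusted p = 0.000296). Acta1 went from 216 and 213 to 476 and 514 (1.20, adjusted p = 1.64e-07). The 2 alpha actins thus moved in opposite directions in the same libraries, with no overlap for either. Without replicate 1 of the Ctcf shRNA cells Acta2 (-0.49, adjusted p = 0.081) and Tpm2 (-0.41, 0.0867) were not called, and Tpm2 was not called without replicate 1 of the control (-0.34, adjusted p = 0.169). Fibroblast markers were lower in 7 of 8 (median -1.50), with a summed score between 25241 and 30512 against 57296 and 57414, and their part in the fall of the contractile genes was not tested.

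The difference of the shRNA effect between SSEA1+ and Thy1+ cells was tested directly. At day 3 and at day 6 it was called for 0 of the 8 genes (limma), with 0.201% and 5.68% of all genes called in either direction. At an unadjusted p below 0.05 (limma), 0 members passed at day 3 and 3 at day 6, beside 916 and 2546 of the 13451 genes. The Actg2 difference at day 6 was 0.61 without replicate 2 of the Ctcf shRNA SSEA1+ cells. At day 9 it was called for 5, all lower in SSEA1+ cells (9.43% of genes were lower): Acta2 (-1.10, SE 0.19), Cnn1 (-1.09), Tagln (-0.99), Tpm2 (-0.80) and Actg2 (-0.67). For Acta1 it was -0.02 (adjusted p = 0.957), its effect being 1.20 in SSEA1+ and 1.22 in Thy1+ cells. Without replicate 1 of the Ctcf shRNA SSEA1+ cells the Cnn1 difference did not pass (-0.81, adjusted p = 0.0688).

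**Figure D3:**
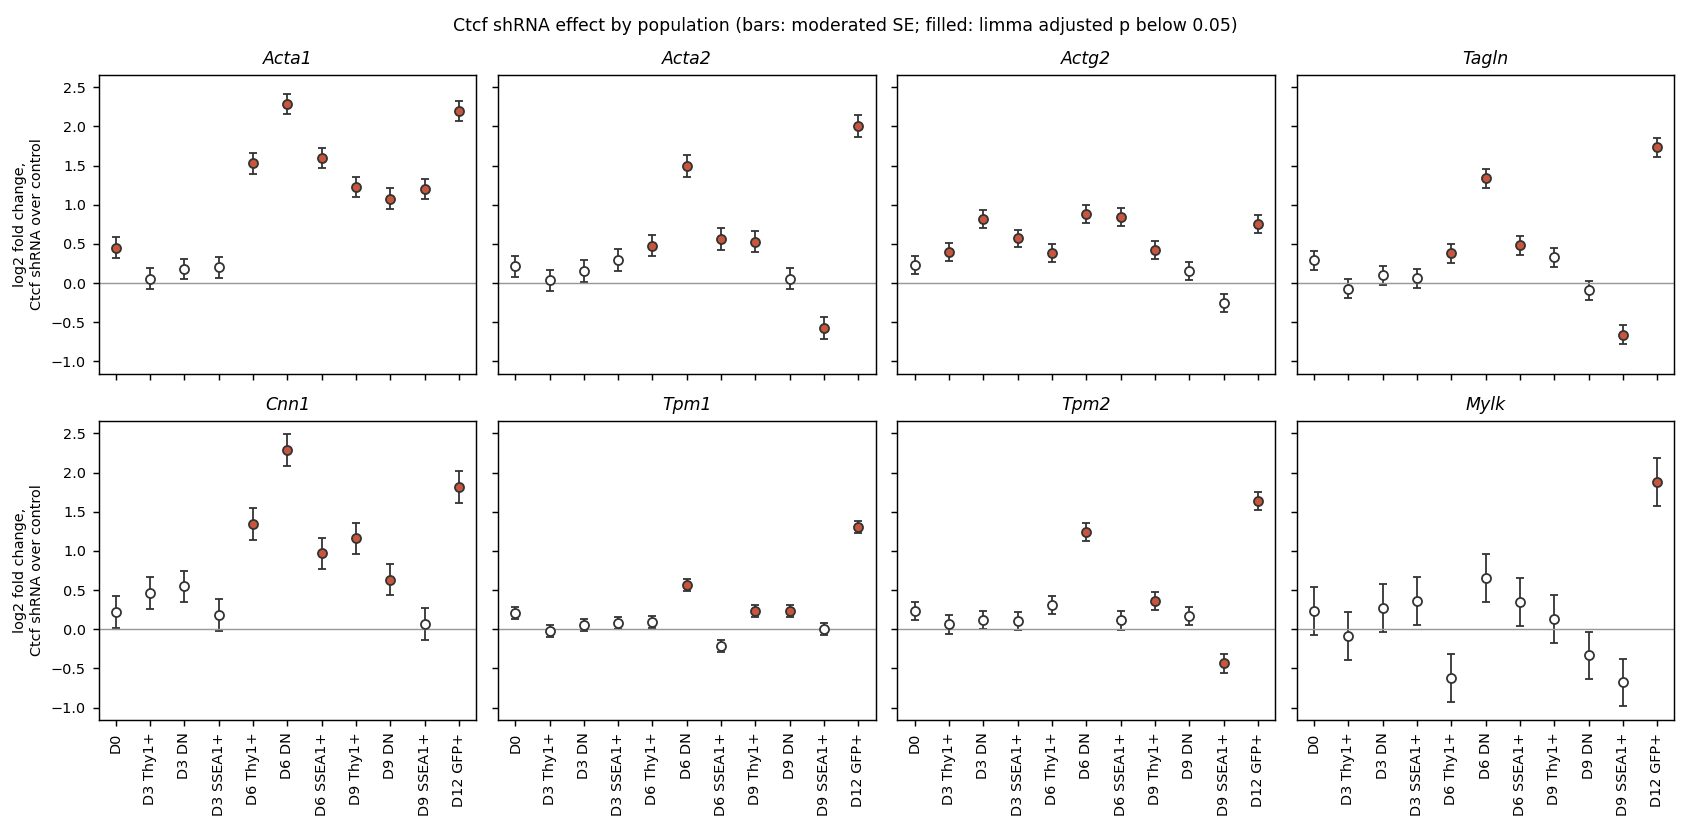
Log2 fold change of each contractile gene with Ctcf shRNA over control shRNA in the 11 populations, with the moderated standard error as bars and filled points where the limma adjusted p is below 0.05. Acta1 is filled in every population from day 6 on, and Acta2, Tagln and Tpm2 are filled below 0 only in day 9 SSEA1+ cells.

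In day 12 GFP+ cells all 8 genes were higher with Ctcf shRNA. Acta2 went from 1520 and 1458 to 5921 and 6000, Tagln from 698 and 654 to 2277 and 2224, and Acta1 from 58 and 65 to 281 and 290. Mylk went from 24 and 16 to 80 and 70. No libraries overlapped for any member, which is given without the share over all genes. The effects were 2.20 for Acta1 (SE 0.13), 2.00 for Acta2, 1.88 for Mylk, 1.81 for Cnn1, 1.73 for Tagln, 1.64 for Tpm2, 1.30 for Tpm1 and 0.76 for Actg2. All were called (limma, adjusted p at most 1.34e-05), against 24.6% of genes, and the median over the 8 was 1.77 beside -0.07 over all genes. The 8 stayed called when any 1 of the 4 libraries was left out. Even so, Acta2 in Ctcf shRNA cells stayed far below its level of 66276 and 78516 in day 0 cells with the same shRNA.

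Related genes of the day 12 cells also went up with Ctcf shRNA (limma). Of 13 other smooth muscle structural genes 9 rose and 1 fell (median 1.02), with Myh11 at 2.41 and Lmod1 at 1.97 among them. Of the 12 non-muscle relatives, myosin chains among them, 9 rose (median 0.72), and Actb did not pass (-0.02) while Actg1 rose by 0.85. All 10 cytoskeletal targets of SRF and YAP rose (median 0.90). Srf itself stood at 0.04 without a call. Fibroblast markers rose in 7 of 8 (median 1.34), with a summed score between 110717 and 111128 against 38056 and 41192 and no marker at 0. None of the 8 pluripotency markers was called, with a median of -0.77. The means of all 8 were lower with Ctcf shRNA, such as Dppa5a at 4214.5 against 7746 in the control. Their summed score was between 23053 and 23191 against 38924 and 39616 in the control. The fit takes the spread of a gene from all 44 libraries, among them day 0 controls with summed scores of 8 and 9 for these markers. The SE of Dppa5a was 0.68 for day 12 against day 0, so the missing calls do not show unchanged markers. Epithelial markers were higher in 3 of 8, with a sum between 27732 and 27761 against 17647 and 17783. The part of these marker shifts in the contractile rise was not tested.

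**Figure D4:**
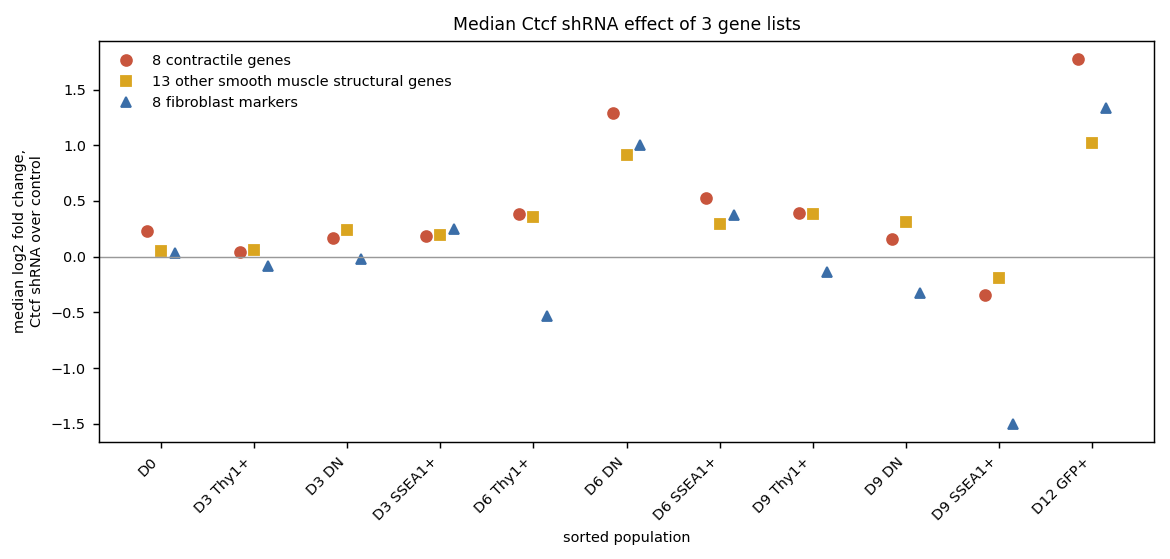
Median log2 fold change with Ctcf shRNA over control shRNA in each population, for the 8 contractile genes (circles), 13 other smooth muscle structural genes (squares) and 8 fibroblast markers (triangles). In day 6 Thy1+ cells the contractile median is 0.38 and the fibroblast marker median -0.53, whereas in day 6 DN and day 12 GFP+ cells both are at 1.00 or more.

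Averaged over the 11 populations with equal weight, the effect of Ctcf shRNA was positive for 7 genes by the test (limma; 26.2% of genes were higher). It was 1.09 for Acta1 (SE 0.04), 0.88 for Cnn1, 0.48 for Acta2, 0.47 for Actg2, 0.36 for Tpm2, 0.35 for Tagln and 0.23 for Tpm1. Mylk stood at 0.20 (adjusted p = 0.0761) and passed in 5 of the fits that leave out 1 library, with adjusted p from 0.00573 to 0.0485: without replicate 2 of the day 3 Ctcf shRNA SSEA1+ cells, replicate 1 of the day 6 Ctcf shRNA SSEA1+ cells, or, among controls, replicate 1 of day 12 GFP+, replicate 2 of day 3 DN and replicate 2 of day 3 SSEA1+ cells. Fibroblast markers were split under the same average, 3 higher and 3 lower of 8 (median -0.02). When the spread was taken only from the 4 libraries compared, no member was called at day 0, at day 3, or in the SSEA1+ cells of days 6 and 9, while 7 were called in day 6 DN cells and 8 at day 12. The shares of all genes called in those fits are not given here.

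At day 10, with retroviral factors, 5 of the 8 genes had a row in the table of the overexpression experiment: Acta2, Actg2, Tagln, Tpm1 and Tpm2. Ctcf stood at 1262 and 1234 in the control columns and at 5110 and 6132 with CTCF overexpression. For the fit, the mean of the 2 control columns stood as 1 sample, because they were closer to each other than the libraries of any other group (7.92% of the genes compared had identical scores, against at most 2.51% elsewhere). Scores of unknown depth cannot show whether they are 1 library, and a fit with all 6 libraries as separate samples is given as well. Tagln stood at 1248 and 1326 in the control columns, at 1016 and 952 with CTCF overexpression, and at 769 and 1012 with the added Smarca5 shRNA. Its control columns lay above all 4 other libraries. The difference to CTCF overexpression was -0.39 (SE 0.20, adjusted p = 0.889, limma). Acta2 stood at 2402 in both control columns, at 2160 and 2166 with CTCF overexpression, and at 1724 and 2434 with the added Smarca5 shRNA. The control columns lay above both CTCF overexpression libraries, and the Smarca5 shRNA libraries overlapped both other groups.

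None of the 5 genes was called in any of the 3 day 10 comparisons (limma). With the 6 libraries as separate samples none was called, and Tagln with CTCF overexpression had an adjusted p of 0.254. With 2 residual degrees of freedom the fit called 0.0618% of genes for CTCF overexpression against control, 0.0773% for the added Smarca5 shRNA against CTCF overexpression and 0.101% for both against control. Ctcf itself was not called at a log2 fold change of 2.16 (adjusted p = 0.217), so a change of that size did not reach a call in this fit.

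The authors' deposited tables of day 10 have no header, so which condition is which was read here from their Ctcf means (10177 and 2039 in the table for CTCF overexpression, 2197 and 1730 in that for Ctcf shRNA), and directions rest on that reading. The authors' deposited table for CTCF overexpression, which holds all 8 genes, gives no member a p below 0.05, and 1.2% of its 54395 rows have one. For Tagln the authors' deposited table has means of 1533 in the condition with more Ctcf and 1982 in that with less (log2 ratio -0.37, authors' p = 0.0855). The authors' deposited table for day 10 Ctcf shRNA gives 6.29% of rows a p below 0.05, among them 2 members. For Actg2 this authors' deposited table has means of 1888 in the condition with less Ctcf and 1448 in that with more, a log2 ratio of 0.38 with an authors' p of 5.15e-08. For Tpm1 the authors' deposited table has 7191 and 8026 in the same order, a log2 ratio of -0.16 with an authors' p of 8.55e-07. The other 6 had a p from 0.0595 (Tpm2) upwards in the authors' deposited table, with Acta1 at a log2 ratio of 0.06 and Acta2 at 0.10. How the p-values of the authors' deposited tables were adjusted is not stated.

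The separate MEF and iPSC libraries, mapped to mm9 and counted without replicates, gave no test. They held 16593659 and 9912018 counts. With 1 added to each CPM (counts scaled to the library total), the MEF library exceeded the iPSC library 8-fold or more for all 8 genes. It did so for 4.92% of all genes. The ratios that follow are of CPM without that addition. Acta2 had 75594 counts in MEFs and 495 in iPSCs, a CPM ratio of 91.2 (exact 95% interval 83.5 to 99.9, counting error only). Tagln had 34609 and 291 counts (ratio 71.0), Tpm1 54551 and 1073 (30.4) and Acta1 1736 and 50 (20.7). Mylk had 683 and 4 counts, so that its ratio of 102 is known only to within 39.7 to 375. Ratios were 64.4 for Actg2, 42.8 for Tpm2 and 38.4 for Cnn1. Beside these, the non-muscle actins Actb and Actg1 had ratios of 1.37 and 2.65.

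**Figure D5:**
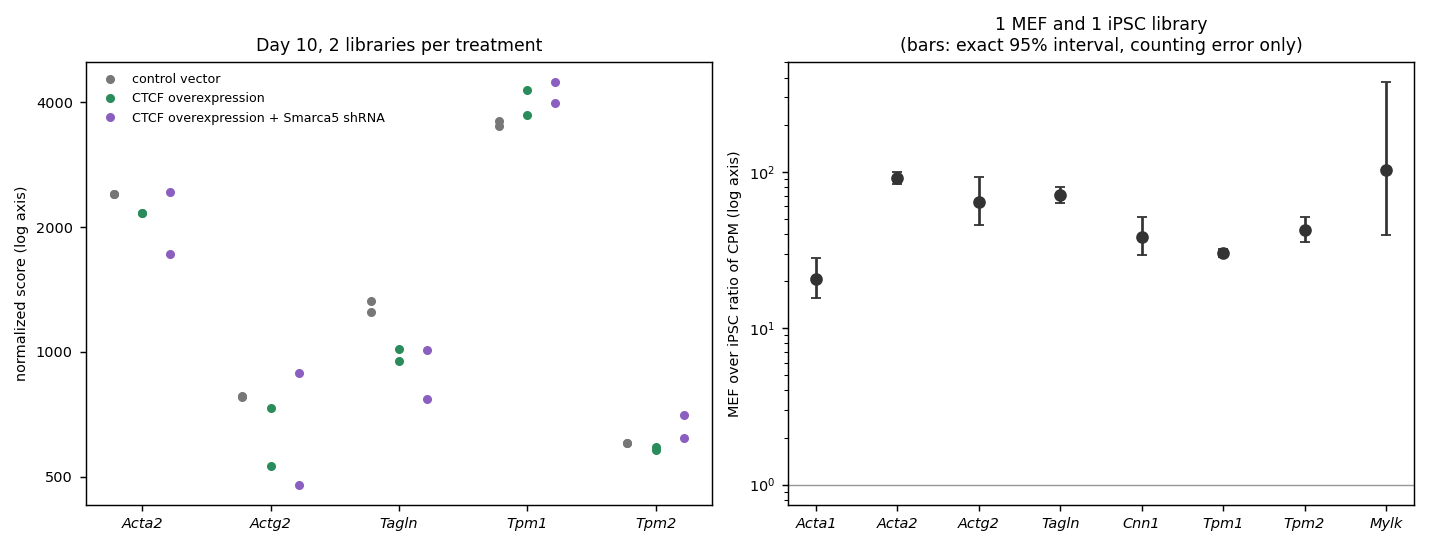
Left, scores (log axis) of the 5 contractile genes measured at day 10, 2 libraries for each of 3 treatments. Right, the ratio of CPM in the MEF library over the iPSC library for the 8 genes (log axis), with exact 95% intervals that cover counting error only; all 8 lie above 20.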

How the data were processed

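RNA was sequenced from 56 samples, of which 4 day 10 libraries with control or Ctcf shRNA had no column of their own. Per the submitters' processing notes, reads passed through Trim Galore, FastQC and RSEM, whose versions are not given in the sources used here, on GRCm38 for all but the MEF and iPSC libraries, which used mm9. The values deposited for sorted and day 10 cells are scores, which the authors normalized and rounded. Every library of a table has the same value at each of its upper ranks (8822 of 14270 rows in the sorted-cell table), so depth is unknown and only ranks differ between libraries there. The MEF and iPSC table holds the authors' counts. The authors' deposited comparison tables give log2 ratios and p-values.

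Scores were taken as log2(score + 1), genes reaching a score of 10 in 2 or more libraries were kept, 819 and 933 repeat types were left out, and limma 3.58.1 (R 4.3.3) was fitted with 1 coefficient per group and a mean-variance trend, over 44 libraries (13451 genes, 22 residual degrees of freedom) or the day 10 libraries (12935 genes, 2 residual degrees of freedom). P-values were adjusted by Benjamini-Hochberg over all genes tested, and an adjusted p below 0.05 was called. Fold changes are on the log2(score + 1) scale, which understates changes of low genes. On simulated data for day 12 against day 0 (13451 genes), the fit called 78 of 100 genes changed by 1 on the log2 scale, 43 of 100 changed by 0.5, and 7 of 13251 unchanged genes. Replicate numbers were not used as pairs. Alternatives covered the pseudocount, filter, normalization, trend, replicate block, libraries fitted and left-out libraries, and edgeR 4.0.16 supplied TMM factors for the count table. The main filter removed no gene, so the run without a filter repeated the main fit. Quantile normalization acted on scores whose upper ranks already matched between libraries.

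The members and gene lists were chosen with earlier results of these data known. The text names the 8 members, Ctcf and Smarca5, every measured relative, up to 4 examples per list by largest called change among better expressed genes, and the 10 genes of most similar pattern. Myh11, Srf, Chrna1, Tnnt2, Ttn and Gata4 were named outside that rule, after their values were seen. Results of 1 gene list and 1 further gene are not reported here.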

Additional observations from a re-analysis of the deposited data

Results flagged for a closer look

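The effect of Ctcf shRNA at day 9 differed between SSEA1+ and Thy1+ cells for 5 of the 8 contractile genes by the test of the difference (limma, adjusted over all genes), and every difference was negative, so that the effect was lower in SSEA1+ cells. It was -1.10 for Acta2 (adjusted p = 0.000196), -1.09 for Cnn1 (0.00725), -0.99 for Tagln (0.00014), -0.80 for Tpm2 (0.00101) and -0.67 for Actg2 (0.0037). Fibroblast markers showed a difference of the same sign, called for 7 of 8 with a median of -1.35. Epithelial and pluripotency markers showed one of the opposite sign, called for 8 and 5 of 8 (medians 1.86 and 2.01). The part of these markers in it was not tested.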

How the results depend on the processing

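Among counts of contractile genes called, those for the steps between days and between gates, for day 6 DN cells and for day 12 GFP+ cells stayed within 1.5 times under all alternatives run. At day 3 in Thy1+ cells the count went from 1 to 0 with quantile normalization and with no mean-variance trend. With only the libraries compared in the fit the count was 0 at day 0 and in all 3 day 3 populations, 2 in Thy1+ cells of days 6 and 9, and 0 in SSEA1+ cells of days 6 and 9. Leaving out 1 library gave 0 to 3 at day 0, 0 in day 3 Thy1+, 0 to 2 in day 3 SSEA1+, 2 to 3 in day 6 Thy1+, 2 to 6 in day 6 SSEA1+, 2 to 4 in day 9 Thy1+ and in day 9 SSEA1+, 1 to 3 in day 9 DN cells, and 0 to 1 for the day 6 difference between gates. Of the 6 members with promoter sequence, those with a CArG box went from 1 to 2 when 1 other letter was allowed. Shares of all genes called in the refits are not given here, and the causes of these shifts were not tested. No called value changed sign; 38 uncalled values of 3397 recomputed did. All 8 members stayed at least 8-fold higher in MEFs under 3 alternatives. Same-numbered libraries did not deviate together (r from -0.10 to 0.13 over 231 pairs of groups, median 0.014). With a replicate block every count stayed within 1.5 times. It added calls of Tpm1 in day 6 SSEA1+ (adjusted p = 0.0478) and Tagln in day 9 Thy1+ cells (0.0398, limma). Unknown depth limits statements on low genes such as Mylk.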
